A study of Mus musculus with 34 samples.

Results

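The lungs described here came from the 14 female mice, of 34 in the series, that breathed ozone (O3) rather than filtered air (FA). The mice were C57BL/6 females of 8 weeks of age (C57BL/6J in the methods), and the exposure was 2 ppm of O3 for 3 h in a single session. They were chosen by their labels alone and fall into 4 stages of the estrous cycle, read from vaginal smears: 5 mice in proestrus, 3 in estrus, 3 in metestrus and 3 in diestrus. The question was whether the inflammatory gene expression of O3-exposed lungs differed between any 2 of these stages, so all 6 pairs of stages were compared without pooling them into phases. The 20 FA mice (6 in proestrus, 6 in estrus, 4 in metestrus and 4 in diestrus), of the same strain, sex and age and kept in the chamber for the same 3 h, gave the background. RNA of the whole lung, taken on the evening of the exposure day, was assayed by real-time PCR on arrays of 84 inflammation genes, 1 array per mouse. In RNA of a whole organ, fewer cells of a type and less RNA per cell cannot be told apart.

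Inhaled O3 is an oxidant gas that injures the epithelium of the airways. Epithelial cells and macrophages answer with chemokines, secreted proteins that bind receptors on leukocytes and draw them into the tissue. CXC chemokines such as Cxcl1, Cxcl2 and Cxcl5 act on neutrophils through Cxcr2, Ccl2 and Ccl7 act on monocytes, Ccl11 on eosinophils, and Ccl20 on dendritic cells and lymphocytes that carry Ccr6. Estradiol rises toward proestrus and progesterone dominates in diestrus, and receptors for both hormones are found in cells of the lung and in leukocytes.

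Expression is given as -ΔCt, the mean threshold cycle (Ct) of 4 reference wells minus the Ct of the gene in the same mouse. It is a log2 scale on which 1 unit is a doubling when amplification is complete, and a less negative value means more RNA. Because primers differ, values are compared between mice for 1 gene and never between genes. The files give plate positions and no genes, and 17 of the 84 wells could be given a name by matching the deposited fold changes to values that the study prints for its genes. Those genes were printed because they differed between O3 and FA mice of this series, so the named wells are not a neutral sample of the array. No lung epithelial marker such as Sftpc or Scgb1a1 is among the named wells, so the tissue label was not checked against markers.

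A Ct was present for all 14 O3 mice in 65 of the 84 wells, and 87 of the 1176 values (7.4%) had no Ct and entered with a Ct of 40. The number of wells without a Ct was 1 to 7 per mouse in proestrus, 1 to 6 in estrus, 6 to 10 in metestrus and 7 to 10 in diestrus. Averaged over the reference wells, Ct was 20.3 ± 0.722 (SD, n = 5) in proestrus, 20.5 ± 0.753 (n = 3) in estrus, 21.1 ± 0.930 (n = 3) in metestrus and 21.3 ± 1.05 (n = 3) in diestrus, with ranges that overlapped. O3 estrus replicate 1 stood apart: its reference well H2 came up 5.86 cycles after H1, against 0.124 to 2.56 cycles in the other 13 mice, and its median -ΔCt over the 84 wells was -6.47 against -8.72 to -7.11. O3 diestrus replicate 2 had the latest mean reference Ct (22.4) and no Ct for Cxcl1 and Nos2. The mice also divide by how their Ct values were written: with 3 decimals in 9 mice (2 in proestrus, 1 in estrus and all in metestrus and diestrus), with 6 in 4 mice (3 in proestrus, 1 in estrus) and with more in O3 estrus replicate 1. Wells H10 to H12 tracked the decimals, with a median Ct of 20.3 to 21.3 in the mice with 3 decimals and 18.8 to 19.7 in those with 6. In O3 estrus replicate 1 this median was 23.8, the latest of the 14. What the decimals stand for is not given in the sources used here. The number of calls is therefore also given within the mice with 3 decimals and without the 2 mice that stood apart. Single differences are given in these ways for part of the genes only.

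**Figure D1:**
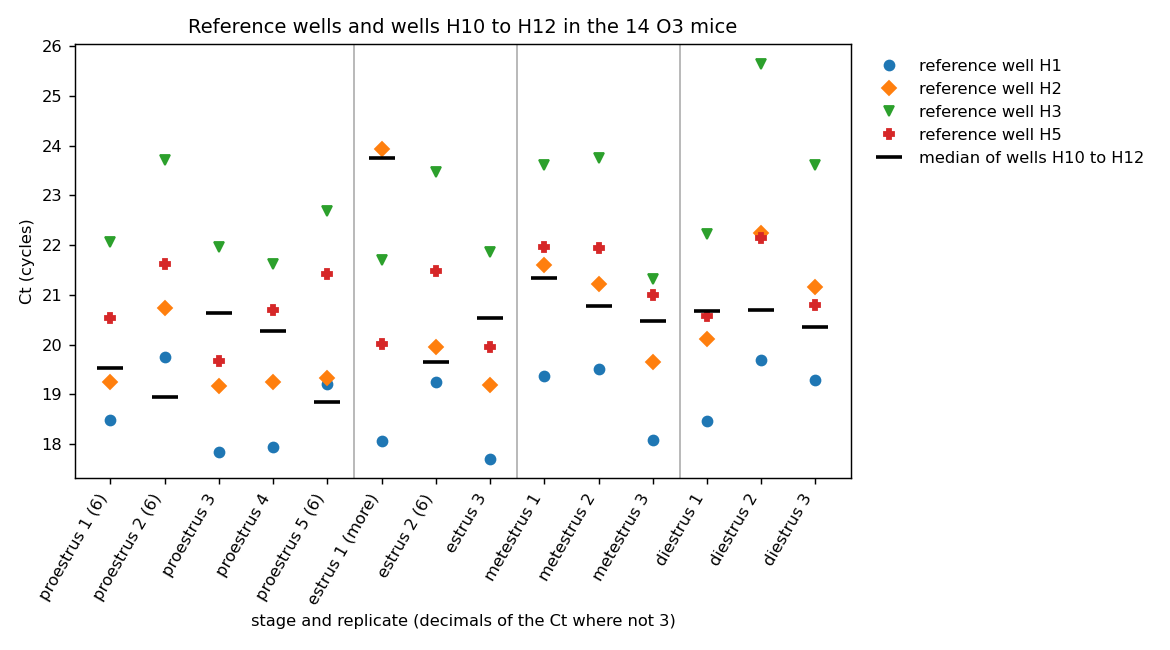
Ct of the 4 reference wells (symbols) and the median Ct of wells H10 to H12 (bars) in each of the 14 O3 mice, in cycles, with the stages separated by lines. H2 of O3 estrus replicate 1 lies at 23.9, above H2 of every other mouse (19.2 to 22.2).

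Proestrus against diestrus was the pair of stages with calls. In females exposed to O3 in proestrus, 6 of the 84 wells (7.14%) had higher expression than in diestrus at an FDR of 0.05, and no well was lower (limma's moderated test, Benjamini-Hochberg adjustment over 84 wells). Of the 6, 3 are the neutrophil chemokines Cxcl1 and Cxcl5 and the epithelial chemokine Ccl20, and the other 3 have no name. At an unadjusted p under 0.05, 20 wells (23.8%) were higher and 2 (2.38%) lower in proestrus, of which 8 and 1 were among the 17 named genes. Leaving out O3 diestrus replicate 2 left 2 calls, Ccl20 and Cxcl1. Leaving out O3 estrus replicate 1 gave 14, of which 3 were lower in proestrus. Without both mice there were 9 calls, 5 of them among the 6.

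The other 5 pairs gave no call at this FDR (0 of 84 wells, 0.0%, in each). Between estrus and diestrus 17 wells (20.2%) reached an unadjusted p under 0.05, each higher in estrus, and 7 of them are named. Between proestrus and metestrus 6 wells (7.14%) did so, each higher in proestrus, between metestrus and diestrus 5 wells (5.95%), between estrus and metestrus 4 wells (4.76%), and between proestrus and estrus none (0.0%). The comparisons share their mice, so the count of estrus against diestrus is not independent of that of proestrus against diestrus. A moderated F-test for any difference among the 4 stages called 0 wells at the FDR (0.0%) and 14 at an unadjusted p under 0.05 (16.7%), with Ccl20, Cxcl1 and Cxcl5 each at an adjusted p of 0.0941 by limma. In the FA mice the same F-test called 0 wells (0.0%), 4 at an unadjusted p under 0.05 (4.76%), and no pair of FA stages gave a call, with 1 to 4 wells at an unadjusted p under 0.05.

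Over the 84 wells the median difference between proestrus and diestrus was 0.50, with 52 wells higher in proestrus. Over the 17 named genes it was 1.21, with 13 higher, but those genes were selected partly through the O3 mice of proestrus and estrus. The size of this shift moved with the reference: the median over the 84 wells was 0.98 with H1 alone, -0.15 with H2 alone, 0.07 with H3 alone, 1.10 with H5 alone and 0.72 without H2. With the mean Ct of the array wells as the reference it was 0.22, and the calls divided into 8 wells higher and 9 lower in proestrus, so the direction of the calls as a whole depends on the reference, while Ccl20, Cxcl1 and Cxcl5 were called and higher in proestrus in both. With H2 alone no well was called. In FA the median of the same difference was -0.09 over the 84 wells and 0.01 over the named genes.

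**Figure D2:**
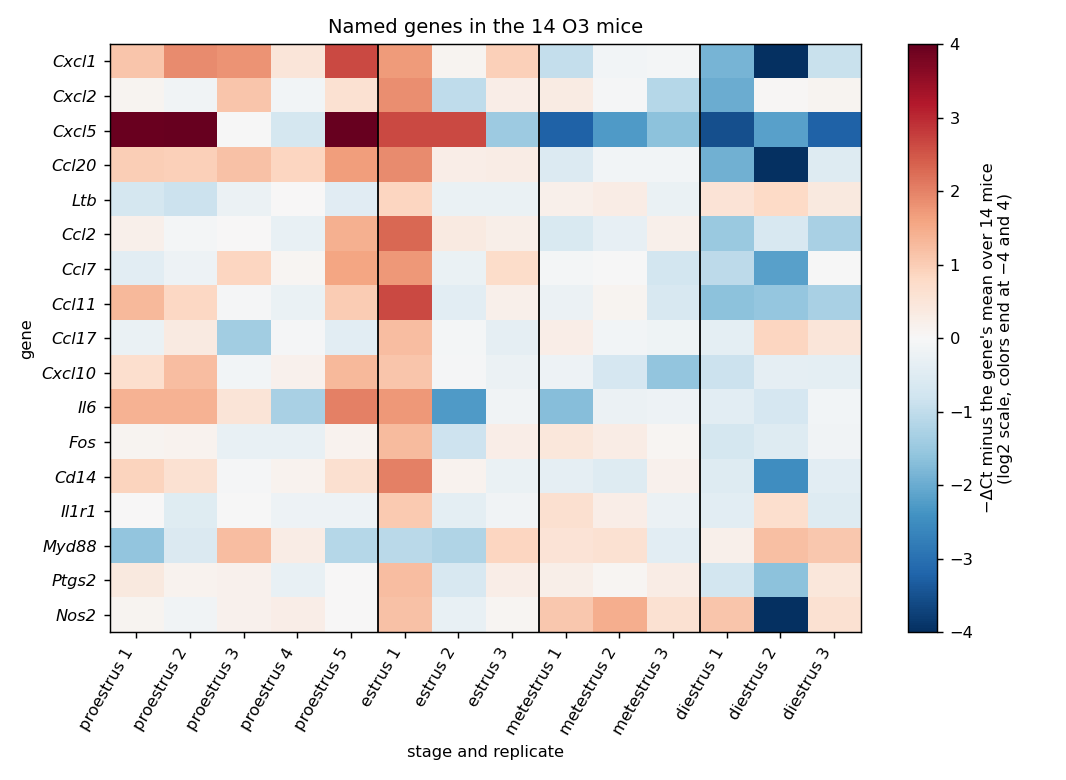
-ΔCt of the 17 named genes (rows) in the 14 O3 mice (columns, ordered by stage), each as its difference from the mean of the gene over the 14 mice, on a log2 scale with colors ending at -4 and 4. Cxcl1 and Ccl20 are red in all proestrus and blue in all diestrus mice, Cxcl5 is red in 3 of the 5 proestrus mice and blue in all metestrus and diestrus mice, and O3 estrus replicate 1 is above the mean for most genes.

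Ccl20, the ligand of Ccr6 that airway epithelium releases on injury, was highest in proestrus and estrus and lowest in diestrus. Its -ΔCt was -4.51, -4.53, -4.31, -4.65 and -3.82 in the proestrus mice and -3.60, -5.23 and -5.21 in estrus. In metestrus it was -6.04, -5.62 and -5.61, and in diestrus -7.41, -10.38 and -6.02. Every mouse in proestrus or estrus was above every mouse in metestrus or diestrus, while proestrus overlapped with estrus and metestrus with diestrus. The level in proestrus exceeded that in diestrus by 3.57 (SE 0.769, 95% interval 1.90 to 5.24; 11.9-fold; adjusted p = 0.0148, limma). The difference was 3.26 (SE 0.859) for estrus against diestrus and 2.18 (SE 0.859) for metestrus against diestrus, with adjusted p = 0.0954 and 0.620 by limma. O3 diestrus replicate 2 was the lowest of the 14. Without it the differences of proestrus, estrus and metestrus from diestrus were 2.35, 2.03 and 0.95. The first was called in each of the 14 fits that left out 1 mouse. It was not called with the decimals as a term (3.49, adjusted p = 0.0749), with H2 alone (2.92, 0.474), with 8 groups on all 34 mice (adjusted p = 0.176), with a separate fit per pair (0.0608), on the linear fold changes (0.188) or with the 6 pairs adjusted together (0.0890, limma). Within the mice with 3 decimals it was 3.45, from 2 proestrus and 3 diestrus mice, and was not called (adjusted p = 0.353, limma).

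In the FA mice the difference of Ccl20 was close in size, but it rested on mice without a Ct, had a wide error and did not pass the test. The FA level was -11.36 ± 1.39 (SD, n = 6) in proestrus and -15.08 ± 4.60 (n = 4) in diestrus, where 2 of the 4 mice had no Ct. The 2 diestrus mice with a Ct were both at -11.11, near the proestrus mean. The 2 without entered at -19.49 and -18.62. The FA difference was 3.72 (SE 1.79, adjusted p = 0.930, limma). The difference of the O3 and FA differences was -0.15 (SE 2.26, adjusted p = 0.997, limma), and it rests on the same 2 mice.

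Cxcl1, a ligand of the neutrophil receptor Cxcr2, had the same order of stages. Its -ΔCt was -9.64, -8.86, -8.96, -10.27 and -8.11 in proestrus and -9.04, -10.66 and -9.82 in estrus. In metestrus it was -11.70, -10.88 and -10.85, and in diestrus -12.61 and -11.64 in 2 mice, with no Ct in O3 diestrus replicate 2, which entered at -17.57. Again no mouse in proestrus or estrus was as low as a mouse in metestrus or diestrus. Proestrus exceeded diestrus by 4.77 (SE 1.06, 95% interval 2.47 to 7.08, adjusted p = 0.0148, limma). The size rests on the mouse without a Ct: the difference was 2.96 without that mouse and 3.44 with the Ct of 36 that the authors used for missing values, and it was called in each of the 14 fits that left out 1 mouse. It was not called with the decimals as a term (4.61, adjusted p = 0.0864), with H2 alone (4.12, 0.234), with a separate fit per pair (0.0608), on the linear fold changes (0.188) or with the 6 pairs adjusted together (0.0890, limma). Estrus exceeded diestrus by 4.10 (SE 1.19, adjusted p = 0.0954) and metestrus exceeded diestrus by 2.80 (SE 1.19, adjusted p = 0.620, limma), which were 2.29 and 0.98 without O3 diestrus replicate 2. Within the mice with 3 decimals, proestrus exceeded diestrus by 4.33 (adjusted p = 0.355, limma). In FA mice the difference between proestrus and diestrus was 0.97 (SE 1.20), and the 2 differences differed by 3.81 (SE 1.72, adjusted p = 0.281, limma).

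The upstream sequences of Ccl20 and Cxcl1 are shown because both genes were called in every fit that left out 1 mouse. Each is the 250 bases before the start site in the RefSeq annotation of mouse build GRCm38.p6, plus strand, at chr1:83116516-83116765 for Ccl20 and chr5:90890995-90891244 for Cxcl1. Capitals mark matches to the consensus of NF-kB, the transcription factor that drives many chemokine genes.
Ccl20: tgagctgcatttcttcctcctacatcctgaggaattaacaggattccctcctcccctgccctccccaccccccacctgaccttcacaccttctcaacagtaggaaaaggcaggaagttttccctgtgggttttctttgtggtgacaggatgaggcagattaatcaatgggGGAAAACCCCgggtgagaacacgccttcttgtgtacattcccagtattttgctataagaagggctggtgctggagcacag
Cxcl1: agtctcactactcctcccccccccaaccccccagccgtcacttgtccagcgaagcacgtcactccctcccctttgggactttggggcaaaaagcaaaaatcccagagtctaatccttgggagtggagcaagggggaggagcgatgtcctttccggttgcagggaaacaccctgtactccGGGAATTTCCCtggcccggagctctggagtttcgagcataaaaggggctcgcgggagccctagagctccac
The match begins 80 bases before the start site of Ccl20, and 2 overlapping matches begin 71 and 70 bases before that of Cxcl1. In windows of 300 bases (250 before and 50 after the start site, both strands), the NF-kB consensus was found in 1480 of 32851 promoters (4.51%) and in 8 of the 11 named genes with an entry: Ccl20, Cxcl1, Cxcl2, Cxcl10, Fos, Il1r1, Il6 and Ltb. The AP-1 motif TGANTCA was found in 7.81% of the promoters and in Cxcl10 and Il6. The full palindromic estrogen response element was found in 0.07% of the promoters and in none of the 11. These matches are a description of the letters, and their part in the stage differences was not tested. The 11 are inflammation genes that differed between O3 and FA mice, so their share is not a fair comparison with all promoters.

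Cxcl5, made by epithelium and also a ligand of Cxcr2, had the widest spread of the 17 genes over the O3 mice (SD 3.03, n = 14). Its -ΔCt was -6.79, -6.69, -10.76, -11.45 and -5.78 in proestrus and -8.09, -8.10 and -12.18 in estrus. In metestrus it was -13.98, -13.02 and -12.39, and in diestrus -14.25, -12.92 and -13.97. All 5 proestrus and 3 estrus mice were above all 6 mice of the other stages. Proestrus exceeded diestrus by 5.42 (SE 1.35, 95% interval 2.50 to 8.34, adjusted p = 0.0221, limma). It exceeded metestrus by 4.84 (SE 1.35, adjusted p = 0.258), and estrus exceeded diestrus by 4.26 and metestrus by 3.68 (both SE 1.50, adjusted p = 0.156 and 0.638, limma). Metestrus and diestrus overlapped (-13.13 ± 0.803 and -13.71 ± 0.698, n = 3 each).

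The levels of Cxcl5 within proestrus divided by the decimals of the Ct values. The 3 proestrus mice with 6 decimals had -6.79 to -5.78 and the 2 with 3 decimals had -11.45 and -10.76, and in estrus the mouse with 3 decimals was likewise the lowest. Within the mice with 3 decimals the difference between proestrus and diestrus was 2.61 (adjusted p = 0.177, limma), and with the decimals as a term in the model it was 2.72 (adjusted p = 0.0226). Cxcl5 divided by the decimals in the FA mice too. Those with 6 decimals, in proestrus, estrus and metestrus, had -12.77 to -11.88. Those with 3 decimals had -20.41 to -16.64, some of them without a Ct. All O3 mice in metestrus and diestrus had 3 decimals, so stage and decimals are partly mixed. The part of the decimals in the stage differences of Cxcl5 was not tested. Cxcl5 was called in 8 of the 14 fits that left out 1 mouse, with adjusted p from 0.0138 to 0.0803 by limma. The call was lost without proestrus replicate 1, 2 or 5 or any 1 of the 3 diestrus mice. It was also lost with H2 alone (4.77, adjusted p = 0.234), with 8 groups on all 34 mice (0.0733), with a separate fit per pair (0.0608), on the linear fold changes (0.362) or with the 6 pairs adjusted together (0.133, limma). In FA mice proestrus exceeded diestrus by 1.73 (SE 1.69), and the differences differed by 3.69 (SE 2.36, adjusted p = 0.411, limma).

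**Figure D3:**
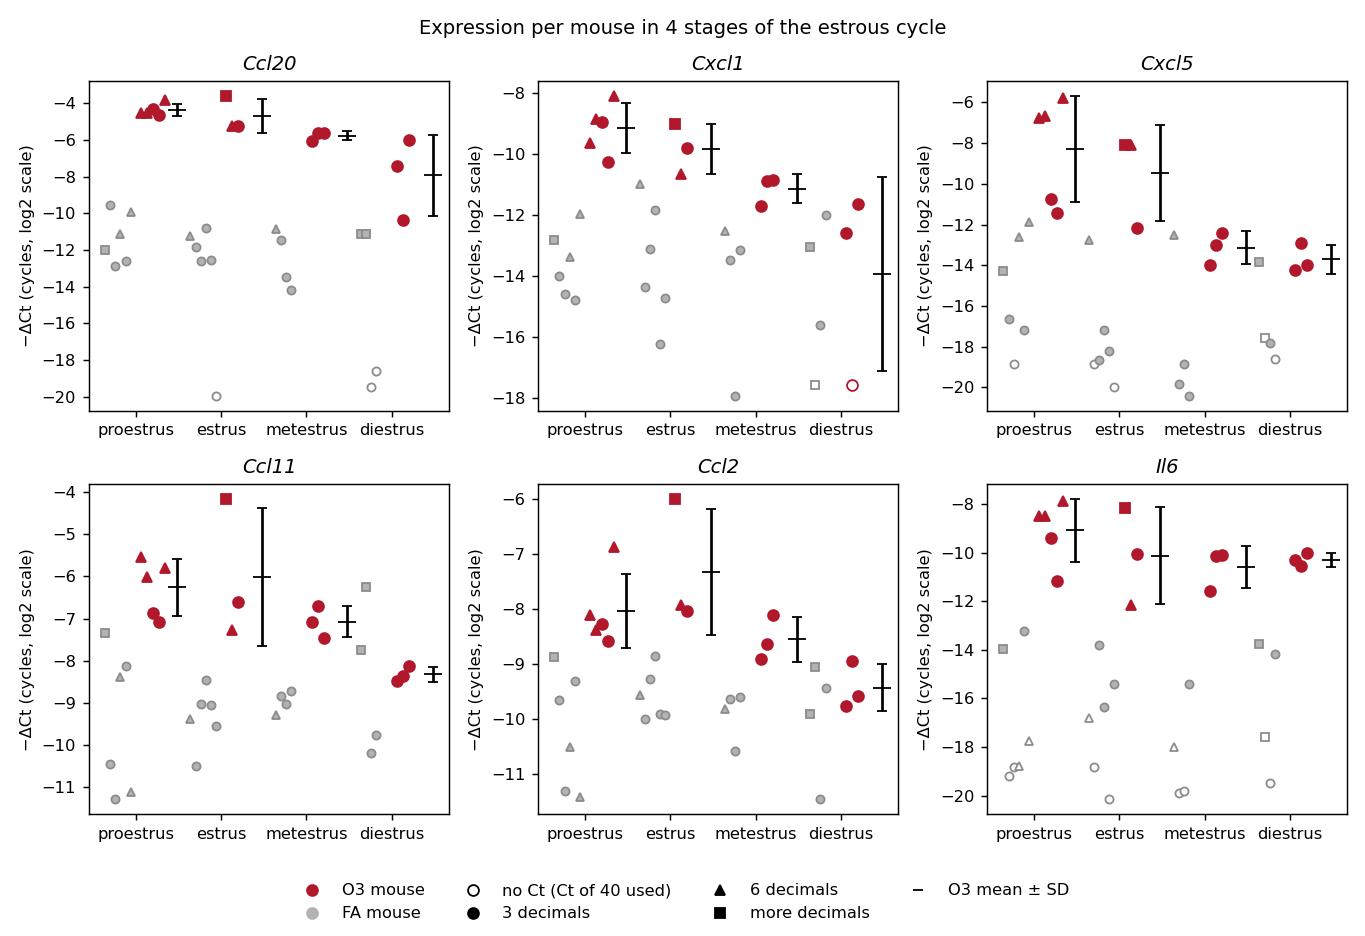
-ΔCt of 6 genes in each O3 mouse (red) and each FA mouse (grey) by stage, on a log2 scale, with the mean ± SD of the O3 mice beside them. Marker shapes give the decimals of the deposited Ct, and open markers are wells with no Ct. For Ccl20, Cxcl1 and Cxcl5 all 8 proestrus and estrus mice lie above all 6 metestrus and diestrus mice. The O3 proestrus values of Cxcl5, Ccl11 and Il6 do not overlap between the 2 marker shapes.

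Cxcl2, the third Cxcr2 ligand with a name, did not separate the stages. Its mean was -6.25 ± 0.535 (SD, n = 5) in proestrus, -6.19 ± 1.43 in estrus, -6.85 ± 0.763 in metestrus and -7.17 ± 1.19 in diestrus (n = 3 each). O3 diestrus replicate 1 was the lowest at -8.55, and the other diestrus mice (-6.51 and -6.47) lay within the range of proestrus. The difference between proestrus and diestrus was 0.92, with a 95% interval of -0.55 to 2.40.

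The monocyte chemokine Ccl2 was lowest in diestrus. Its -ΔCt was -8.11, -8.38, -8.27, -8.59 and -6.88 in proestrus, -6.01, -7.93 and -8.05 in estrus, -8.91, -8.64 and -8.11 in metestrus and -9.77, -8.95 and -9.59 in diestrus. All 3 diestrus mice were below all 11 others, and all 3 estrus mice were above the 3 metestrus mice. Proestrus exceeded diestrus by 1.39 (SE 0.534, adjusted p = 0.126) and estrus exceeded diestrus by 2.11 (SE 0.597, adjusted p = 0.0954), so that neither passed the FDR (limma). Without O3 estrus replicate 1, the difference between proestrus and diestrus was called (adjusted p = 0.0436, limma), and that between estrus and diestrus was 1.45. Ccl7, a related monocyte chemokine, ranged from -8.02 to -6.02 in proestrus and from -9.78 to -7.62 in diestrus, which overlapped. Its differences from diestrus, 1.46 (SE 0.618) in proestrus and 1.82 (SE 0.691) in estrus, had adjusted p = 0.156 and 0.158 (limma), and without O3 diestrus replicate 2 the former was 0.91.

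Ccl11, or eotaxin, which attracts eosinophils, separated diestrus from all other stages. Its -ΔCt was -5.54, -6.01, -6.87, -7.08 and -5.81 in proestrus, -4.17, -7.26 and -6.61 in estrus, -7.07, -6.70 and -7.45 in metestrus and -8.47, -8.36 and -8.12 in diestrus. The diestrus mice were below the other 11, while the other 3 stages overlapped. Proestrus exceeded diestrus by 2.06 (SE 0.621, adjusted p = 0.0631, limma), just above the threshold, and estrus exceeded diestrus by 2.30 (SE 0.695, adjusted p = 0.0997). Without O3 estrus replicate 1 the former was called (adjusted p = 0.0117) and the latter was 1.38. With the reference wells H1, H3 and H5, proestrus exceeded diestrus by 2.27 (adjusted p = 0.00813, limma). In FA mice Ccl11 went the other way (-0.97, SE 0.807), but the difference of the differences did not pass the FDR (3.03, SE 1.10, adjusted p = 0.214, limma). Ccl17, a chemokine for Th2 lymphocytes, overlapped between all stages, with means of -4.16 ± 0.658 in proestrus, -3.54 ± 0.849 in estrus, -3.81 ± 0.242 in metestrus and -3.48 ± 0.650 in diestrus.

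Cxcl10, an interferon-inducible chemokine for T cells, had all 5 proestrus mice above all metestrus and diestrus mice, with differences that did not pass the FDR. Its -ΔCt was -5.40, -4.85, -6.20, -5.92 and -4.79 in proestrus, -4.96, -6.13 and -6.32 in estrus, -6.28, -6.75 and -7.67 in metestrus and -6.95, -6.43 and -6.47 in diestrus. The lowest proestrus mouse (-6.20) was close to the highest metestrus mouse (-6.28), and the estrus mice were above those of diestrus and overlapped with those of metestrus. The difference was 1.46 from metestrus and 1.18 from diestrus (both SE 0.478, adjusted p = 0.267 and 0.141, limma). Within the mice with 3 decimals the latter was 0.56.

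The acute cytokine Il6 did not differ between the stages beyond the spread. Its -ΔCt was -8.50, -8.50, -9.39, -11.18 and -7.89 in proestrus, -8.17, -12.17 and -10.05 in estrus, -11.59, -10.13 and -10.09 in metestrus and -10.31, -10.57 and -10.02 in diestrus. The 3 estrus mice ran from the lowest value of the 14 to the second highest, and 4 of the 5 proestrus mice were above all metestrus and all diestrus mice. All 6 pairs of stages overlapped. Proestrus minus diestrus was 1.21, with a 95% interval of -0.69 to 3.10. Il6 had a Ct in all 14 O3 mice, whereas 12 of the 20 FA mice had none. Fos, an immediate early transcription factor of the AP-1 family, had means between -5.02 ± 0.276 in diestrus and -4.28 ± 0.196 in metestrus, and its 3 metestrus mice were above the 3 diestrus mice.

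Of the innate sensing genes, Cd14, the co-receptor for lipopolysaccharide on monocytes and macrophages, was lowest in diestrus. Its -ΔCt was -2.86, -3.16, -3.82, -3.62 and -3.13 in proestrus, -1.76, -3.61 and -4.02 in estrus, -4.11, -4.27 and -3.58 in metestrus and -4.29, -6.26 and -4.17 in diestrus. All proestrus and estrus mice were above the 3 diestrus mice. The differences from diestrus were 1.59 in proestrus (SE 0.586, adjusted p = 0.111) and 1.78 in estrus (SE 0.655, adjusted p = 0.158), and the former was 0.91 without O3 diestrus replicate 2 (limma). The latter was 1.10 without that mouse and 1.09 without O3 estrus replicate 1. Myd88, the adaptor of Toll-like receptors, was -7.01, -5.99, -4.20, -5.13 and -6.57 in proestrus and -5.22, -4.22 and -4.35 in diestrus. Like Cxcl5, it divided by the decimals within proestrus, but in the opposite direction: -7.01 to -5.99 in the 3 mice with 6 decimals against -5.13 and -4.20 in the 2 with 3 decimals. The 2 sets did not overlap either for Ccl11, Cd14, Cxcl10, Il6 and Fos, higher with 6 decimals, or for Ltb and Nos2, lower with 6. They overlapped for the other named genes. In the mice with 3 decimals, means in proestrus and diestrus were -6.98 and -8.32 for Ccl11 and -3.72 and -4.91 for Cd14. For Ltb they were -5.79 and -5.11. The part of the decimals in these genes was not tested. Il1r1, the signaling receptor of interleukin-1, varied least of the 17 genes over the 14 O3 mice (-4.80 ± 0.481, SD) and did not separate any stages.

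The inducible enzymes did not separate proestrus from diestrus. Ptgs2, which makes prostaglandins, had means of -4.98 ± 0.252 in proestrus, -4.78 ± 0.933 in estrus, -4.85 ± 0.122 in metestrus and -5.69 ± 1.05 in diestrus. Nos2, which makes nitric oxide, was -11.45 to -11.05 in proestrus and higher in all 3 metestrus mice (-10.24, -9.88 and -10.70). In diestrus it was -10.22 and -10.71 in 2 mice and had no Ct in O3 diestrus replicate 2, so its diestrus mean of -12.83 ± 4.11 describes none of the 3 mice. No difference of Ptgs2 or Nos2 between any 2 stages reached an unadjusted p of 0.05.

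Ltb, the lymphotoxin subunit made by lymphocytes, was the one named gene lower in proestrus than in diestrus at an unadjusted p under 0.05. Its -ΔCt was -6.38, -6.52, -5.92, -5.67 and -6.14 in proestrus, -4.80, -5.95 and -5.93 in estrus, -5.48, -5.38 and -5.94 in metestrus and -5.14, -4.89 and -5.29 in diestrus. All diestrus mice were above all proestrus and metestrus mice. The difference between proestrus and diestrus was -1.02 (SE 0.364, adjusted p = 0.109, limma). It was called with the mean Ct of the array wells as the reference (-1.30, adjusted p = 0.0114), without H2 (-0.80, adjusted p = 0.0475) and without O3 estrus replicate 1 (adjusted p = 0.0269). Ltb was the only named well that marks lymphocytes, so whether lymphocyte markers moved with it as a group was not tested. In FA mice the difference was 0.13 (SE 0.475).

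**Figure D4:**
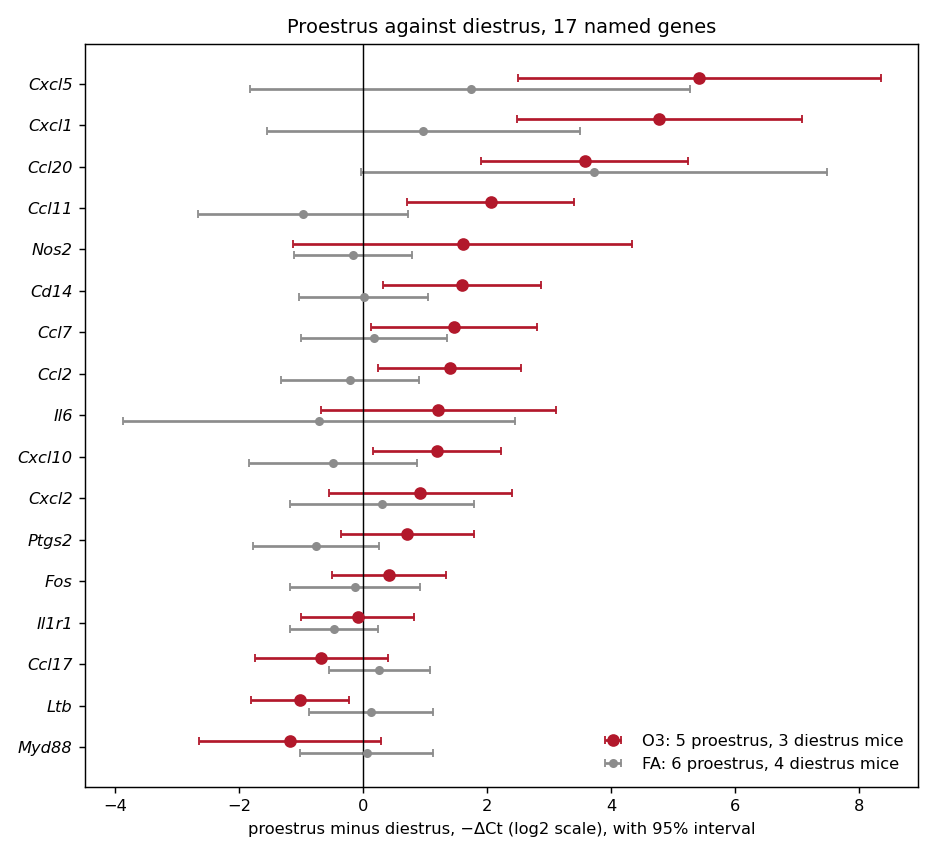
Proestrus minus diestrus in -ΔCt (log2 scale) with 95% intervals for the 17 named genes, in O3 mice (red, 5 against 3) and FA mice (grey, 6 against 4), ordered by the O3 value. The O3 intervals of Cxcl5, Cxcl1 and Ccl20 begin at or above 1.90, and that of Ltb ends at -0.23. The FA intervals of all 17 genes include 0.

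Of the wells without a name, 3 were also higher in proestrus than in diestrus. In well A7, -ΔCt was -9.31, -9.22, -9.90, -10.82 and -8.08 in proestrus, -7.89, -10.04 and -11.04 in estrus, -11.46, -10.67 and -10.76 in metestrus and -12.12, -13.02 and -12.77 in diestrus. The 3 proestrus mice with 6 decimals (-9.31 to -8.08) lay above the 2 with 3 decimals (-10.82 and -9.90). The diestrus mice were below all others, and proestrus exceeded diestrus by 3.17 (SE 0.702, adjusted p = 0.0148, limma). With the decimals as a term it was 2.37 and still called (adjusted p = 0.0226), and within the mice with 3 decimals it was 2.28 (adjusted p = 0.177, limma). It was called in 13 of 14 fits that left out 1 mouse, and lost without O3 diestrus replicate 2 (adjusted p = 0.0624). Estrus exceeded diestrus by 2.98 (SE 0.785, adjusted p = 0.0954, limma). A further unnamed well had a difference of 3.03 between proestrus and diestrus (SE 0.678, adjusted p = 0.0148, limma). Without O3 diestrus replicate 2 it was 2.26 and no longer called (adjusted p = 0.0678, limma). It was also not called without both mice that stood apart, with the decimals as a term, with 8 groups or with separate fits.

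The well at position E1 of the plate was the single well in which the difference between proestrus and diestrus itself differed between O3 and FA mice (1 of 84 wells, 1.19%). Its -ΔCt in O3 mice was -6.54, -6.54, -6.84, -7.42 and -6.29 in proestrus, -6.06, -8.09 and -8.19 in estrus, -6.18, -7.94 and -7.99 in metestrus and -9.31, -10.19 and -8.25 in diestrus. The 3 diestrus mice were below the other 11, and proestrus exceeded diestrus by 2.53 (SE 0.627, adjusted p = 0.0221, limma). This call was lost with the decimals as a term (2.23, adjusted p = 0.0780, limma) and kept in 9 of 14 fits that left out 1 mouse. Without O3 diestrus replicate 2 the difference was 2.06 (adjusted p = 0.135, limma). The 3 proestrus mice with 6 decimals (-6.54 to -6.29) lay above the 2 with 3 decimals (-7.42 and -6.84). Diestrus was exceeded by 1.81 in estrus and by 1.88 in metestrus (both SE 0.701, adjusted p = 0.158 and 0.620, limma), and the former was 1.12 without O3 estrus replicate 1. In FA the level was -7.59 to -6.85 in proestrus (median -7.10, n = 6) and -6.87, -6.11, -8.03 and -5.62 in diestrus, which overlapped, with a difference of -0.51 (SE 0.450). The difference of the differences was 3.04 (SE 0.745, adjusted p = 0.0280, limma). Without O3 diestrus replicate 2 it was 2.57 (adjusted p = 0.245), and 26 of the 34 fits that left out 1 mouse kept the call. It was also lost without O3 proestrus replicate 1, 2 or 5, O3 diestrus replicate 1, FA proestrus replicate 6 or FA diestrus replicate 2 or 4. For the other 83 wells, the named genes among them, the stage difference in O3 mice was not shown to differ from that in FA mice, and the F-test of the interaction over all 4 stages called 0 wells (0.0%; 6 wells at an unadjusted p under 0.05).

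The wells whose mice did not overlap were also counted. Groups of 3 and 3 mice separate by chance more often than groups of 5 and 3. The shares of pairs with proestrus are thus not on the same footing as those of the other pairs. The 5 proestrus mice were all above the 3 diestrus mice in 15 wells (17.9%), 7 of them named: Ccl2, Ccl11, Ccl20, Cd14, Cxcl1, Cxcl5 and Cxcl10. They were all below in 8 wells (9.52%), with Ltb the one named gene. Estrus was above diestrus in 13 wells (15.5%), with the same 7 named genes, and below in none. Estrus was above metestrus in 10 wells (11.9%), with Ccl2, Ccl20, Cxcl1 and Cxcl5 among them, and below in none. Proestrus was above metestrus in 7 wells (8.33%), with Ccl20, Cxcl1, Cxcl5 and Cxcl10, and below in 2 (2.38%), with Nos2 the one named gene. Metestrus was above diestrus in 5 wells (5.95%), with Ccl2, Ccl11 and Fos, and below in 2 (2.38%), with Ltb the one named gene. Proestrus was above estrus in none and below it in 2 (2.38%), neither named. Among the named genes, Ccl20, Cxcl1 and Cxcl5 had no overlap between proestrus or estrus and either metestrus or diestrus. For Cxcl5 the closest values were -12.18 in estrus and -12.39 in metestrus. They were named through values printed for O3 against FA in proestrus and estrus together, so these same O3 mice entered their selection. The separation is thus a description and not independent support. Only proestrus against diestrus gave calls at the FDR.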

How the data were processed

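Per the labels and the study's methods, total RNA of lung homogenate was reverse transcribed and run with SYBR Green on an 84-gene inflammation PCR array (QuantStudio 12K Flex). The authors deposited the raw Ct values, which are not normalized, with wells lacking a Ct marked as undetermined. They also deposited linear fold changes (ratio), made by the 2-ΔΔCt method from 4 endogenous controls, 1 FA diestrus mouse as calibrator and, as the recomputation of all values showed, a Ct of 36 where none was found. The software's version and baseline settings are not given in the sources used here.

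Here, -ΔCt was computed from the Ct values against the mean of wells H1, H2, H3 and H5, with a Ct of 40 where none was found, which exceeds every measured Ct. Missing values and late Ct values (20 above 35 in the O3 mice) limit the precision at low expression. Stage means of the 14 O3 mice were fitted with limma 3.58.1 (R 4.3.3), and 6 pairs and an F-test were tested, two-sided, with Benjamini-Hochberg adjustment over 84 wells (FDR 0.05). The 20 FA mice were fitted likewise, and interactions were tested in 8 groups of all 34 mice. The fits were checked on simulated data. Tables were made with Python 3.11.15, numpy 2.4.6 and pandas 2.3.3, and figures with matplotlib 3.10.9. Promoters came from RefSeq (GRCm38.p6).

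A well was named when the difference of its mean deposited fold changes between 2 groups matched a value printed for a gene within 0.00075, which left 67 wells unnamed. Every named well is described. For named genes and for wells A7 and E1, differences with errors are printed for pairs of O3 stages with an unadjusted p under 0.05, and elsewhere only where a gene's result needed its interval. Of the unnamed wells past the FDR, A7 and E1 are shown by position. The members, gene lists and alternatives were chosen with earlier results of these data known. The alternatives without H2 and without both outlying mice were added after the Ct values were seen.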

Additional observations from a re-analysis of the deposited data

Results flagged for a closer look

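Within the O3 proestrus mice, Ccl2 was -6.88 in replicate 5, against -8.59 to -8.11 in the other 4, and this gap was 0.721 of the whole range of the group, above the 95% critical value for 5 samples. Among the 20 groups of 4 to 10 mice that could be tested (O3 proestrus, for the wells shown), this was the single one, where chance gives about 1 in 20. Without this mouse, Ccl2 in proestrus exceeded diestrus by 1.10 (adjusted p = 0.256, limma).

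In well E1, the difference between proestrus and diestrus was 2.53 in O3 mice and -0.51 in FA mice, and the difference of the differences was 3.04 (adjusted p = 0.0280, limma). With settings other than leaving out a single mouse it ranged from 2.37 within the mice with 3 decimals to 3.38 with reference well H5 alone on the -ΔCt scale. Beside the fit with the replicate number as a block, it did not pass the FDR with H2 alone (adjusted p = 0.728), with H3 alone (0.0632), on the linear fold changes (0.110), with the decimals as a term (0.0564), within the mice with 3 decimals (0.459) or without both outlying mice (0.112). The part of the decimals and of O3 diestrus replicate 2 in this value was not tested further.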

How the results depend on the processing

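The count of 6 wells between proestrus and diestrus depended on the reference and on the model. It was 16 with H1 alone, 0 with H2 alone, 24 with H5 alone, 17 with the mean Ct of the array wells (9 of them lower in proestrus) and 20 with H2 left out (2 of them lower). It was 10 with limma's trend and robust options, 2 with the decimals as a term, 0 in the mice with 3 decimals, 0 on the authors' linear fold changes, 3 with a separate fit per pair and 0 when the p-values of all 6 pairs were adjusted together. Leaving out 1 mouse at a time gave 2 to 14 wells, the lowest without O3 diestrus replicate 2 and the highest without O3 estrus replicate 1. Leaving out mice, estrus against diestrus gave 0 to 2 wells, the F-test over the stages 0 to 2, and the F-test of the interaction 0 to 1.

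Estrus against diestrus gave 5 wells with H5 alone, 3 with a Ct of 36 for missing values, 3 with a Ct limit of 35, 2 with missing values left out, 8 with trend and robust, and 1 with 8 groups on all 34 mice. The F-test over the stages gave 8 with H5 alone, 5 with the array mean, 3 without H2, 4 with a Ct of 36, 4 with a limit of 35, 5 with missing values left out, 6 with trend and robust and 2 with 8 groups. Proestrus against metestrus gave 1 with trend and robust and 2 with separate fits, and the F-test of the interaction gave 1 on the linear fold changes. The cause of these changes was not tested. Of the 1003 alternative values of the 29 single differences followed, 879 kept their side of the threshold, 54 passed it, 70 no longer did and none changed sign. Only the 6 calls between proestrus and diestrus and the interaction of well E1 were past the FDR in the main fit. The 70 losses all fall on these, and most of the 879 are values that were not called in either fit. The 29 were picked for a low p in the main fit, which favors a stable sign.

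The replicate numbers of the labels did not pair the mice: 18 same-numbered pairs had correlations from -0.445 to 0.489, and 2 of 14 mice correlated best with their own number. With the replicate block, proestrus against diestrus gave 0 wells (adjusted p = 0.0657 for Ccl20 and Cxcl1 and 0.0646 for Cxcl5 and A7, limma), and the interaction of well E1 was 2.88 (adjusted p = 0.0868). The planned permutation test of wells past the stage F-test was not run, because no well passed it. With 3 mice in 3 of the stages precision was low: among the wells shown, the smallest called difference between proestrus and diestrus was 2.53.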
